A study of Mus musculus with 6 samples.

Results

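The 10 genes described here are core parts and common readouts of cellular senescence and of the p53 pathway, measured in liver endothelial cells (ECs) of young and aged mice. They are Cdkn1a, Cdkn1b, Cdkn2a, Cdkn2b, Cdkn2c, Trp53, Mdm2, Gdf15, Lmnb1 and Ccnd1, taken by name from a table of 24421 gene symbols, and all 10 were found in it and passed the filter on low counts. RNA came from 50000 CD31+CD45- liver cells per sample, sorted by flow cytometry from wild-type C57BL/6J mice of 10 weeks (young, 3 samples) and of 127, 131 and 136 weeks (aged, 1 sample at each age). The samples are described as independent, but whether each is a single mouse is not stated in the sources used here. No treatment was given, the mice were female according to the study's methods, and visibly diseased animals were left out. The aged samples are named by their age in weeks, and the young samples by replicate number. The gate keeps cells with the endothelial surface protein CD31 and removes cells with the leukocyte protein CD45, so it mixes sinusoidal, venous and arterial ECs.

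Senescence is a lasting exit from the cell cycle. In it, cyclin-dependent kinase (CDK) inhibitors of the CIP/KIP family (Cdkn1a to Cdkn1c) and of the INK4 family (Cdkn2a to Cdkn2d) hold back the kinases that start DNA replication. The transcription factor p53, encoded by Trp53, is kept low by the ubiquitin ligase Mdm2 and, when DNA damage or other stress frees it, switches on Cdkn1a, Mdm2 itself and many other targets. Most ECs of an adult liver do not divide, so a non-dividing state alone is not a sign of senescence in this tissue. Loss of lamin B1 (Lmnb1) and secretion of inflammatory factors are other common readouts, and Gdf15 is a secreted stress cytokine.

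Total counts per library ran from 23001556 to 31651817, so that 3 counts, the floor used here, stood for a CPM (counts scaled to a common library total) of 0.0948 to 0.130. The mean CPM of Pecam1, the gene of CD31, was 1440 ± 126 for young and 1460 ± 153 for aged samples (SD, n = 3 each). Pecam1 belongs to a list of 10 endothelial markers, of which 3 were higher and 7 lower in aged samples. For 5 of them, Fcgr2b, Kdr, Stab1, Stab2 and Tek, aged values lay entirely below young values, against 8.33% of all tested genes. For 0 they lay entirely above. Lars2 and Rn45s, symbols that collect ribosomal RNA reads, took few counts in a pair of libraries (1.29% for young replicate 3, 0.96% for the 127-week sample) and at least 4.68% in the other 4. The 8 pan-leukocyte markers had a summed CPM of 100 to 106 in young samples, 115 at 127 weeks, 102 at 131 weeks and 374 at 136 weeks, and all 8 had their highest value at 136 weeks. Lcp1 made up most of that sum in young samples (79.3 to 86.9) and was at 59.6 at 127 weeks, where the median marker stood 1.11 above the young mean on the log2(CPM + 1) scale.

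The matches to the p53 consensus are shown first, because they mark which of the 10 genes carry the letters of a p53 binding element near their start in the genome build of the reads (mm9). The consensus as scanned here is a pair of adjoining decamers, with no bases between them. A match here keeps the C and the G at the core of each decamer, shown in capitals, and departs from the consensus at no more than 2 of the other bases, within 3000 bases before to 1000 bases after the gene's start as annotated. Of the 10 genes, Cdkn1a and Gdf15 hold such a match, each with 1 mismatch. The Cdkn1a match (chr17:29227873-29227892, plus strand) begins at position -51 from the first annotated start and at -2844 from the next one. The Gdf15 match (chr8:73155865-73155884, minus strand) lies in an annotated exon, 471 bases after the gene's start and 110 bases after the next annotated start. Read 5′ to 3′ on the strand of the gene, they are:
Cdkn1a: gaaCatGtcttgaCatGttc
Gdf15: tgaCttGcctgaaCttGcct
For comparison, the matches with 1 mismatch among 27 scanned genes of a p53 target list, described further on, are:
Ccng1, upstream: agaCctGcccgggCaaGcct
Ccng1, intron: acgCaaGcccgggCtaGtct
Psrc1, intron: gggCatGttgaggCatGccc
Rps27l, intron: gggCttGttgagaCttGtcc
A match with up to 2 mismatches was found for 8 of those 27 genes (29.6%) and for 4.03% of 22208 protein-coding genes. The window of Mdm2 held none by this rule, which cannot find decamers set apart by other bases.

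Counts were compared between aged and young ECs with edgeR's quasi-likelihood test over 14612 genes, and every adjusted p below is Benjamini-Hochberg adjusted over all of them, from edgeR unless DESeq2 is named. At an adjusted p below 0.05 edgeR called 0 of the 10 genes and 0 of all 14612 genes (0.0%), while 1986 genes (13.6%) had an unadjusted p below 0.05. DESeq2, which was run as an alternative, called 637 genes (4.29%) and 1 of the 10, Gdf15. Of the 10 genes, 2 had aged values entirely above the young values, Gdf15 and Cdkn1a, against 9.62% of all genes, and 0 had them entirely below, against 8.33%. The other 8 overlapped between the ages. The highest of the 6 samples was the 136-week sample for 6 of the 10 genes, against 25.7% of all genes. When that sample was left out, 1 of the 10 (Gdf15) had an unadjusted p below 0.05, against 8.51% of all genes. By sign, 8 were higher and 2 lower, with 0.21 as the median log2 fold change, while 51.0% of all genes were higher and their median was 0.009. Without the 136-week sample 5 were higher and 5 lower, with a median of 0.045, and the median of all genes was 0.004.

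**Figure D1:**
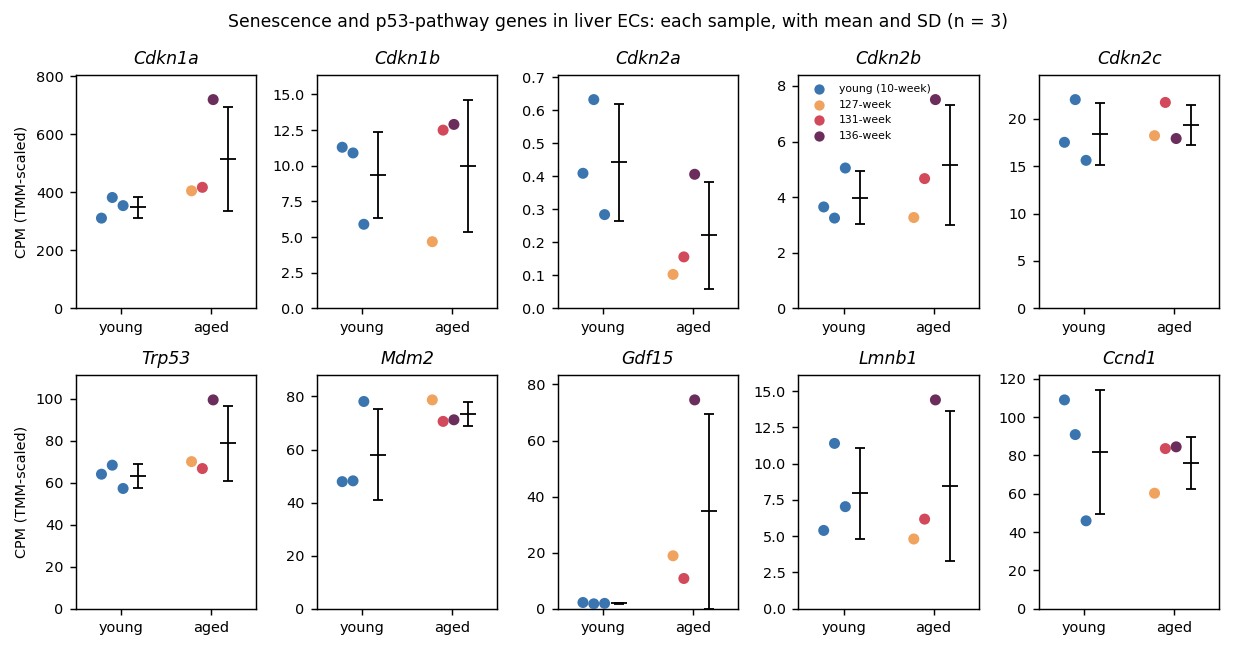
CPM of each of the 10 genes (linear axes, scaled by TMM factors) in each young and aged sample, with the mean and SD beside the points (n = 3 per age). The 3 aged samples lie above the 3 young samples for Cdkn1a and Gdf15, and the 136-week sample is the highest of the 6 for Cdkn1a, Cdkn1b, Cdkn2b, Trp53, Gdf15 and Lmnb1.

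Gdf15 differed most. It encodes a secreted member of the TGF-beta superfamily that p53 and the integrated stress response can both induce. Its CPM was 2.23, 1.76 and 1.92 in young replicates 1, 2 and 3, and 18.9, 10.8 and 74.5 at 127, 131 and 136 weeks. The lowest aged sample thus had several times the level of any young sample, and the aged samples differed widely among themselves. The means were 1.97 ± 0.24 and 34.7 ± 34.7 (SD, n = 3 each), a ratio of 17.6. The log2 fold change was 4.13 (standard error, SE, 0.78, 95% interval 2.30 to 5.95, adjusted p = 0.165), and Gdf15 ranked 76th of all genes by edgeR's p of 0.000948. With DESeq2 the log2 fold change was 4.13 (SE 0.61, adjusted p = 1.43e-08). Without the 136-week sample it was 2.91 in edgeR (adjusted p = 0.106), and without the 131-week sample it was 4.55 and passed the threshold (adjusted p = 0.0458). Gdf15 is also in the list of genes that the study selected on these samples, so its direction here is not independent evidence.

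Cdkn1a encodes p21, the CDK inhibitor through which p53 halts the cell cycle. Its CPM was 311, 382 and 354 in young replicates 1, 2 and 3, and 405, 417 and 719 at 127, 131 and 136 weeks. The ages did not overlap, but the lowest aged sample stood close to the highest young sample, and the 136-week sample set the size of the difference. The means were 349 ± 35.9 and 514 ± 178 (SD, n = 3 each), and the log2 fold change was 0.56 (SE 0.25, 95% interval -0.022 to 1.14, adjusted p = 0.385). Without the 136-week sample it was 0.24 (adjusted p = 0.766). DESeq2 gave 0.55 (adjusted p = 0.338), so neither tool called it. Among libraries with many Lars2 and Rn45s reads the log2 difference of mean CPM was 0.71 and between the pair with few it was 0.20, while for Gdf15 these were 4.42 and 3.29.

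Trp53 itself had a CPM of 64.1, 68.4 and 57.3 in young replicates 1, 2 and 3, and of 70.1, 66.8 and 99.5 at 127, 131 and 136 weeks. The 131-week sample fell within the young range, and the log2 fold change of 0.32 (SE 0.19, adjusted p = 0.510) had a 95% interval from -0.12 to 0.75. Mdm2 had a CPM of 47.9, 48.2 and 78.1 in young samples and of 78.7, 70.6 and 71.2 in aged samples. The high young value was that of replicate 3, which shares a low Lars2 and Rn45s share with the 127-week sample. Between those libraries the log2 difference of Mdm2 was 0.012, and among the other 4 it was 0.56. Over all 6 the log2 fold change was 0.34 (SE 0.21, 95% interval -0.16 to 0.83, adjusted p = 0.542). The activity of p53 is set largely at the protein level, which was not measured.

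**Figure D2:**
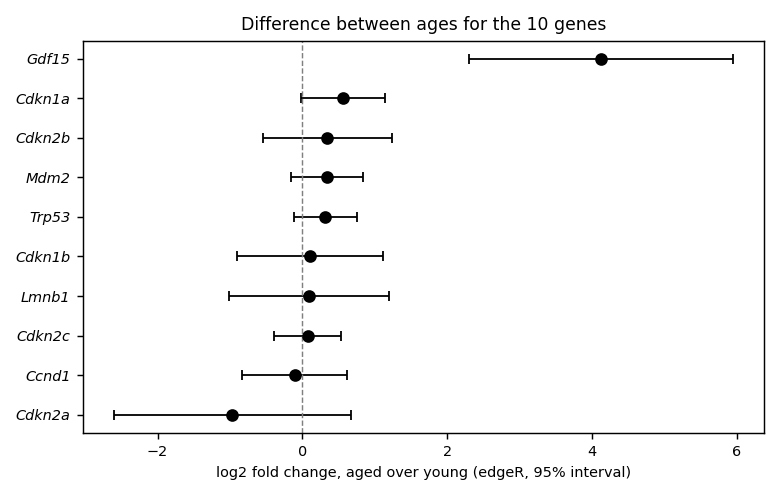
Fitted log2 fold change of aged over young ECs (x axis) for each of the 10 genes, with its 95% interval from edgeR. The interval of Gdf15, 2.30 to 5.95, is the only one that leaves out 0 and is also the widest. The intervals of Lmnb1, Cdkn1b and Cdkn2a are wide too.

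Cdkn2a, the gene of the INK4 inhibitor p16 and of the Mdm2-binding protein p19ARF, was close to the limit of detection at both ages. It had 11, 14 and 9 reads in young replicates 1, 2 and 3, and 3, 4 and 10 reads at 127, 131 and 136 weeks. In CPM these were 0.41, 0.63 and 0.28 in young samples and 0.10, 0.16 and 0.41 in aged samples, so the ages overlapped. Only young replicate 2 reached the CPM of 0.5 set by the filter. The gene was thus tested through a young sample alone, and the sign of its difference is not evidence of a fall. The log2 fold change was -0.97 (SE 0.72, adjusted p = 0.609), with a 95% interval from -2.60 to 0.67. A higher level in aged ECs was not detectable at this depth. The counts are per gene symbol, so reads of p16 and of p19ARF cannot be told apart, and a level in a bulk sample cannot separate a few cells with much of the transcript from many cells with little.

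The other INK4 genes of the set overlapped between ages. Cdkn2b, which encodes p15, had a CPM of 3.65, 3.25 and 5.05 in young samples and of 3.27, 4.67 and 7.51 in aged samples, with a log2 fold change of 0.35 (SE 0.38, adjusted p = 0.753). Without the 136-week sample it was -0.025. Cdkn2c, which encodes p18, had a CPM of 17.5, 22 and 15.6 in young samples and of 18.2, 21.7 and 17.9 in aged samples. Its log2 fold change was 0.072, and its 95% interval from -0.39 to 0.53 was among the narrowest of the set. Cdkn1b, which encodes the CIP/KIP inhibitor p27, had a CPM of 11.3, 10.9 and 5.90 in young replicates 1, 2 and 3 and of 4.68, 12.5 and 12.9 at 127, 131 and 136 weeks. The 2 low values were those of the libraries with few Lars2 and Rn45s reads. Its log2 fold change was 0.10 (SE 0.43, adjusted p = 0.953).

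Both inhibitor genes that complete these families were examined too. Cdkn2d, which encodes the INK4 inhibitor p19INK4d, had a CPM of 22.8, 25.4 and 33.3 in young samples and of 41.3, 41.1 and 45.8 in aged samples. All 3 aged samples were above the young samples and alike, with a log2 fold change of 0.65 (SE 0.18, unadjusted p = 0.00751, adjusted p = 0.228 in edgeR and 0.0671 in DESeq2). Cdkn1c, which encodes p57, had a log2 fold change of -0.14 (adjusted p = 0.889).

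Levels were set side by side per transcript length, as FPKM. In young ECs Cdkn1a was at 195 ± 20.6 and Trp53 at 38.5 ± 3.32, and neither range met that of the next gene. Ccnd1 at 22.1 ± 8.60, Mdm2 at 19.4 ± 5.97 and Cdkn2c at 14.8 ± 2.5 followed, and their ranges overlapped. Then came Cdkn1b at 4.01 ± 1.30, Cdkn2b at 3.24 ± 0.834, Lmnb1 at 2.88 ± 1.11 and Gdf15 at 2.12 ± 0.244, whose neighbours did not differ beyond their spread, and last Cdkn2a at 0.541 ± 0.228 (SD, n = 3 each). In aged ECs the FPKM of Gdf15 was 38.1 ± 37.9, the third place by mean against the ninth in young ECs, and Cdkn1a at 288 ± 101 was again first and Cdkn2a at 0.306 ± 0.22 again last (SD, n = 3 each). That place of Gdf15 rests on 81.5 at 136 weeks, since it was at 21.1 at 127 weeks and 11.8 at 131 weeks, below Mdm2 at 26.4 and 23.4. Cdkn1a was the most abundant CDK inhibitor transcript per length in every sample, young samples included.

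**Figure D3:**
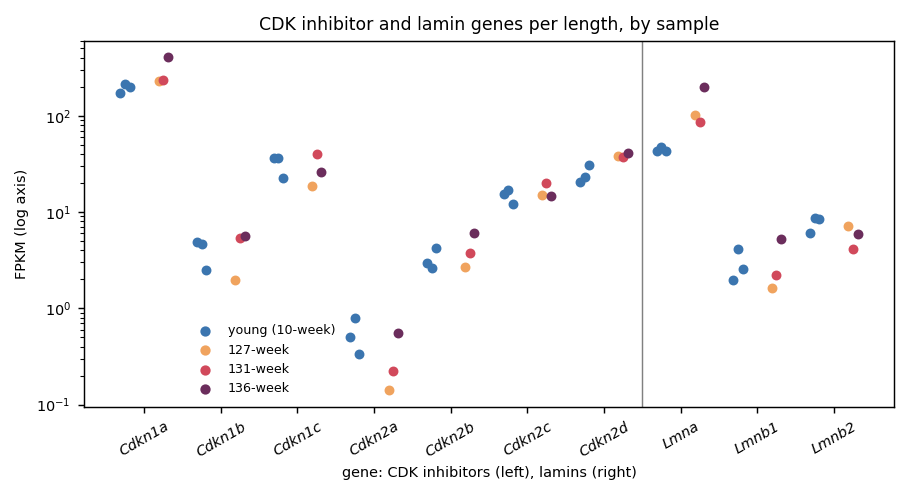
FPKM on a log axis of the CDK inhibitor genes (left) and the lamin genes (right) in each sample. Cdkn1a lies at the top and Cdkn2a at the bottom of the inhibitors in all 6 samples, and the aged values of Cdkn2d and Lmna all lie above the young ones.

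Ccnd1 encodes cyclin D1, the partner of CDK4 and CDK6 that INK4 proteins oppose. It had a CPM of 109, 90.9 and 45.9 in young replicates 1, 2 and 3 and of 60.3, 83.6 and 84.5 at 127, 131 and 136 weeks, and its log2 fold change was -0.10 (SE 0.31, adjusted p = 0.931). Its value was low in both libraries with few Lars2 and Rn45s reads, and within the library pair and the other 4 libraries the differences were 0.39 and -0.25. In the annotation its locus (chr7:152115836-152125774) overlaps Oraov1 on the opposite strand. Of 19 further genes of cyclin D, RB and E2F control, edgeR called 0, and 1 had an unadjusted p below 0.05, Ccnd2, against 13.6% of all genes, or 0 with the 136-week sample left out, against 8.51%. Ccnd2, which encodes cyclin D2, had a CPM of 372, 338 and 309 in young samples and of 274, 274 and 230 in aged samples, a log2 fold change of -0.39 (SE 0.15, adjusted p = 0.330). E2f1, a transcription factor that drives replication genes, and Ccnd3, which encodes cyclin D3, had log2 fold changes of -0.81 (adjusted p = 0.423) and -0.26 (adjusted p = 0.512).

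Lmnb1 encodes lamin B1, a protein of the nuclear lamina. Its CPM was 5.40, 11.4 and 7.04 in young replicates 1, 2 and 3 and 4.81, 6.18 and 14.4 at 127, 131 and 136 weeks. The lowest and the highest value both belonged to aged samples, and the log2 fold change of 0.095 (SE 0.47, adjusted p = 0.960) had a 95% interval from -1.01 to 1.20. Without the 136-week sample it was -0.52 (adjusted p = 0.805). Lmna, the gene of lamins A and C, had a CPM of 102, 112 and 98.1 in young samples and of 234, 193 and 434 in aged samples. The ages lay well apart, with a log2 fold change of 1.47 (SE 0.30, adjusted p = 0.169 in edgeR and 8.37e-04 in DESeq2). Of the 10 listed genes of the lamina and nuclear envelope, 3 were higher and 7 lower, with a median of -0.098. DESeq2 called Lmna alone, against 4.29% of all genes, and Tmpo, which encodes lamina-associated polypeptide 2, had a log2 fold change of 0.35 (adjusted p = 0.314) and Lmnb2, which encodes lamin B2, of -0.42 (adjusted p = 0.512).

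The p53 target list held 29 further genes, from DNA repair to apoptosis, and all were tested. Aged ECs had more of 13 and less of 16, and the median log2 fold change was -0.13. edgeR called 0, and at an unadjusted p below 0.05 there were 3 higher, where the share over all genes was 9.03%, and 5 lower, where it was 4.56%. DESeq2 called 2, both higher, where it called 3.33% of all genes higher. With that sample left out these counts were 2 higher and 1 lower, where all genes gave 5.76% and 2.75%. The targets were thus split between both directions.

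Among the targets, those called by DESeq2 encode proteins of cell death. Tnfrsf10b, which encodes the TRAIL death receptor, had a CPM of 6.14, 7.27 and 6.75 in young samples and of 13.1, 11.7 and 33.5 in aged samples, a log2 fold change of 1.53 (SE 0.43, adjusted p = 0.229 in edgeR and 0.0162 in DESeq2). Pmaip1, which encodes the BH3-only protein Noxa, had a CPM of 3.01, 0.858 and 3.16 in young samples and of 4.47, 5.64 and 17.2 in aged samples, a log2 fold change of 1.91 (SE 0.65, adjusted p = 0.294 in edgeR and 0.0479 in DESeq2). In both genes the 136-week sample was far above the other aged samples. Another death receptor gene, Fas, went the other way, at 155, 151 and 204 CPM in young samples and 109, 131 and 77.9 in aged samples, a log2 fold change of -0.68 (SE 0.22, adjusted p = 0.286). The others with an unadjusted p below 0.05, named after their values were seen, were Gadd45a at a log2 fold change of 1.08 and, on the lower side, Xpc at -0.71, Trp53inp1 at -0.57, Sesn1 at -0.46 and Ei24 at -0.37. Of the targets printed above with a p53 match, Ccng1 had a log2 fold change of -0.28, Rps27l of -0.13 and Psrc1 of -0.019, and all 3 overlapped between ages.

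**Figure D4:**
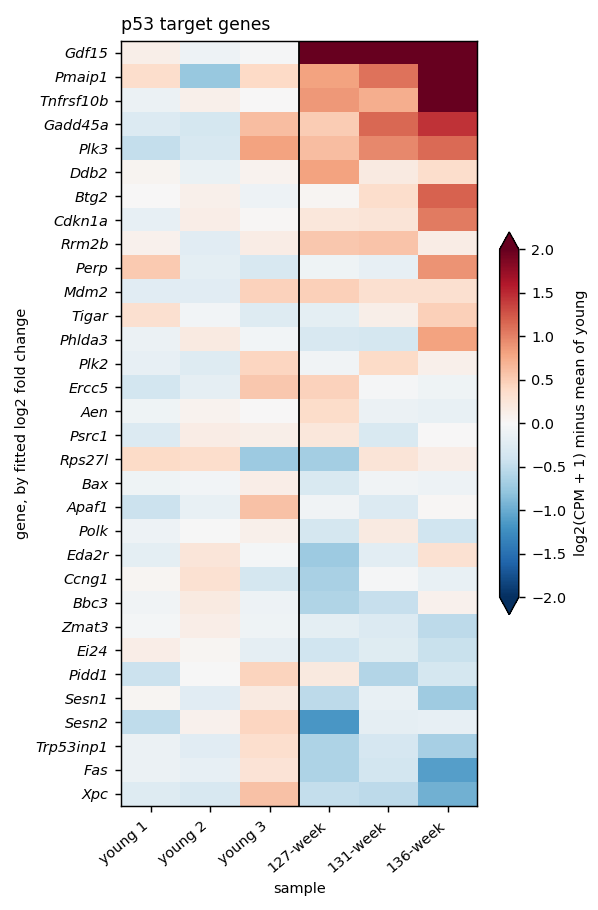
Heatmap of log2(CPM + 1) minus the mean of the young samples for the 29 p53 target genes and Cdkn1a, Mdm2 and Gdf15 (rows, ordered by fitted log2 fold change) in each sample (columns, young left of the line). Colors stop at 2 and -2, and the rows run from Gdf15 at 4.13 to Xpc at -0.71 with a gradual change between.

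Of 13 listed p53 regulators, Trp63 and Trp73 were below the filter, and of the other 11 edgeR called 0 and 0 had an unadjusted p below 0.05, where the share over all genes was 13.6%. DESeq2 called 0 too. The smallest p belonged to the DNA damage kinase gene Atr with a log2 fold change of 0.39 (adjusted p = 0.552). Hipk2 and Atm, which encode kinases that act on p53, had log2 fold changes of -0.50 (adjusted p = 0.694) and 0.21 (adjusted p = 0.724).

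Polycomb proteins keep the Cdkn2a locus silent, and the list of its regulators held 16 genes, of which 9 were higher and 7 lower. At an unadjusted p below 0.05 there were 4 on the higher and 1 on the lower side (9.03% and 4.56% of all genes), or 3 and 0 with the 136-week sample left out (5.76% and 2.75% of all genes). Bmi1, a Polycomb repressor of the locus, had a CPM of 46.5, 45.9 and 44.5 in young samples and of 63.9, 62.8 and 65.8 in aged samples. Each age was tight around its own level, with a log2 fold change of 0.49 (SE 0.12, adjusted p = 0.210 in edgeR and 0.0347 in DESeq2). Kdm6b, a demethylase that removes the Polycomb histone mark, had a CPM of 23.9, 22.6 and 32.8 in young samples and of 46.4, 45.7 and 101 in aged samples, a log2 fold change of 1.28 (SE 0.34, adjusted p = 0.223 in edgeR and 0.0170 in DESeq2). Cbx7, another Polycomb gene, had a log2 fold change of 0.56 (adjusted p = 0.322). The gene on the lower side, named after its values were seen, was Ets1, which encodes an activator of the locus, at a log2 fold change of -0.48 (adjusted p = 0.366). The remaining gene on the higher side, also named afterwards, was Tbx3 at 1.95 (adjusted p = 0.343). Its CPM was 6.74, 7.31 and 41.2 at 127, 131 and 136 weeks against 3.12 to 7.54 in young samples.

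Senescent cells secrete inflammatory and matrix factors, and of the 10 pathway lists this secretory list held the most genes called by DESeq2. Of its 23 tested genes (25 listed), 16 were higher and 7 lower (median log2 fold change 0.98). At an unadjusted p below 0.05 there were 11 higher and 2 lower, and DESeq2 called 8 higher and 2 lower, while edgeR called 0. Over all genes these shares were 9.03% and 4.56% at an unadjusted p and 3.33% and 0.964% in DESeq2. Leaving out the 136-week sample gave unadjusted counts of 8 higher and 2 lower of 22, where all genes gave 5.76% and 2.75%, and a median of 0.70. Il6, an inflammatory cytokine, had a CPM of 7, 4.56 and 1.04 in young samples and of 10.4, 26.5 and 58.8 in aged samples, a log2 fold change of 2.94 (SE 0.77, adjusted p = 0.220 in edgeR and 0.00186 in DESeq2). The chemokine gene Ccl2 had a CPM of 7.89, 9.7 and 15.7 in young samples and of 43.0, 25.9 and 155 in aged samples. Its log2 fold change was 2.74 (adjusted p = 0.210 in edgeR and 3.63e-04 in DESeq2). Plaur, the urokinase receptor, had a CPM of 26.2, 39.9 and 42.3 in young samples and of 85.7, 66.7 and 214 in aged samples, a log2 fold change of 1.76 (adjusted p = 0.211 in edgeR and 0.00435 in DESeq2).

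Some genes of that list lay in the opposite direction. Hgf, a growth factor that liver ECs supply to hepatocytes, had a log2 fold change of -2.35 (adjusted p = 0.0852 in edgeR and 5.11e-11 in DESeq2), and Igfbp7, an abundant endothelial secreted protein, of -0.85 (adjusted p = 0.231 in edgeR and 0.00133 in DESeq2). The study reported lower Hgf and counted Ccl2 among genes raised with age in these same samples, so neither direction is independent evidence. Others that DESeq2 called were Cxcl1, Cxcl2 and Igfbp5, with log2 fold changes from 1.53 to 2.00, and Ccl7 at 3.57. The ages overlapped for Ccl7, which had a CPM of 9.35, 1.79 and 45.3 at 127, 131 and 136 weeks against 1.27 to 2.26 in young samples.

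The integrated stress response, through which ATF4 induces Gdf15 and other genes, was described by 13 tested genes (14 listed), of which 12 were higher (median log2 fold change 0.39), where 51.0% of all genes were higher. At an unadjusted p below 0.05 there were 5 higher (9.03% of all genes), and DESeq2 called 2, Atf3 and Nupr1, both higher (3.33% of all genes). With the 136-week sample left out 10 were higher, with a median of 0.14 and 3 at an unadjusted p below 0.05 on the higher side (5.76% of all genes). Atf4 had a CPM of 115, 102 and 149 in young samples and of 174, 175 and 238 in aged samples, a log2 fold change of 0.68 (SE 0.20, adjusted p = 0.241). Atf3, a stress-induced transcription factor, had a CPM of 457, 449 and 981 in young samples and of 1380, 1090 and 2280 in aged samples, a log2 fold change of 1.33 (SE 0.40, adjusted p = 0.258 in edgeR and 0.0230 in DESeq2). Nupr1, a stress-induced nuclear protein, had a log2 fold change of 1.61 (adjusted p = 0.241 in edgeR and 0.0233 in DESeq2). Aged values lay entirely above young values for 4 of the 13 genes, against 9.62% of all genes. Asns, Ddit3, Trib3, Psat1 and Chac1, named after their values were seen, overlapped between ages. Their log2 fold changes were 0.36, 0.25, 0.24, 0.11 and 0.032.

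Cdkn1a, Gdf15 and Atf3 also respond quickly to the handling of cells. They were therefore set beside a list of 10 dissociation and immediate early genes, which includes the heat shock genes Hspa1a and Hspa1b. Aged ECs had more of 9 of the listed genes (median log2 fold change 0.28), where 51.0% of all genes were higher. At an unadjusted p below 0.05 there was 1, against 13.6% of all genes. DESeq2 called 1 higher and 1 lower, against 3.33% and 0.964% of all genes. With the 136-week sample left out 8 were higher and 2 lower, with a median of 0.11. Fosb had a log2 fold change of 0.86 (adjusted p = 0.229 in edgeR and 0.0483 in DESeq2), Junb of 0.53 (adjusted p = 0.395) and Egr1 of 0.56 (adjusted p = 0.427). Dusp1 was on the lower side at -0.41 (adjusted p = 0.551 in edgeR and 0.0434 in DESeq2). The part of cell handling in the values of Cdkn1a and Gdf15 was not tested.

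The 21 proliferation genes were mostly on the lower side, with 6 higher and 15 lower (median log2 fold change -0.20), and edgeR and DESeq2 called 0. Pcna, the replication clamp and also a p53 target, had a CPM of 74.0, 80.2 and 76.6 in young samples and of 88.1, 105 and 97.2 in aged samples, a log2 fold change of 0.33 (SE 0.13, adjusted p = 0.336), and was the only one with an unadjusted p below 0.05, against 13.6% of all genes. Mcm5 and Mcm6, subunits of the replicative helicase, had log2 fold changes of -0.60 (adjusted p = 0.382) and -0.28 (adjusted p = 0.409). By sample the list median stood at -1.02 at 131 weeks, -0.14 at 127 weeks and 0.20 at 136 weeks against the young mean, on the log2(CPM + 1) scale, with young samples from -0.30 to 0.40. Over the other 5 samples, without the 136-week one, 2 were higher and 19 lower, with a median of -0.45 and an unadjusted p below 0.05 for 2 lower genes, against 2.75% of all genes.

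**Figure D5:**
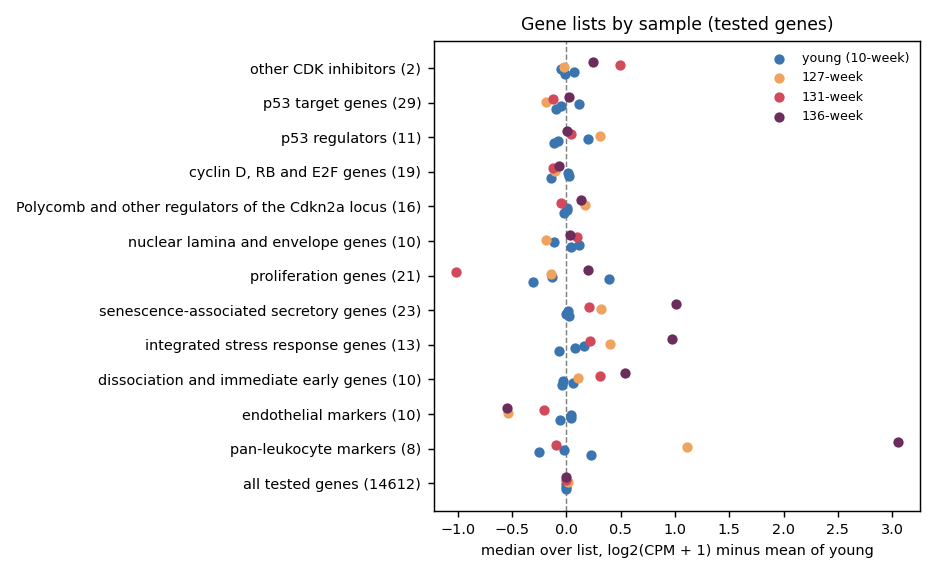
Median of log2(CPM + 1) minus the mean of the young samples over the tested genes of each list (number in brackets), for each sample. The secretory list reaches 1.01 and the stress response list 0.97 in the 136-week sample, where the pan-leukocyte markers stand at 3.06, while the p53 target list stays between -0.19 and 0.03 in all 3 aged samples.

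Summed leukocyte markers were highest in the 136-week sample, while summed hepatocyte markers were lowest there. The CD45 gene Ptprc had a CPM of 1.56, 1.17 and 1.70 in young samples and of 7.57, 1.28 and 25.6 at 127, 131 and 136 weeks, an order of the aged samples that Gdf15 shared. All 8 pan-leukocyte markers had a higher median in aged samples. The summed CPM of the 10 macrophage markers was 93.5 to 113 in young samples and 128, 19 and 215 at 127, 131 and 136 weeks, that of 7 T and NK cell markers 0.978 to 1.79 in young and 0.856 to 23.8 in aged samples, and that of 5 B cell markers 0.947 to 1.23 and 0.739 to 8.49, with Pax5 at 0 in every library. In the 131-week sample the pan-leukocyte sum was within the young range and the macrophage and T cell sums were below it. Hepatocyte markers summed to 101 to 166 CPM in young and 67.3 to 96.0 in aged samples, stellate and mural cell markers to 110 to 381 and 191 to 653, and cholangiocyte markers to 88.1 to 105 and 189 to 237. The 10 endothelial markers summed to 15700 to 16700 CPM in young and 9860 to 13000 in aged samples, and 3 of them had a higher median in aged samples. Gdf15, Cdkn1a, Cdkn1b, Cdkn2b, Trp53 and Lmnb1 were all highest at 136 weeks. The part of these other cells, or of a changed mix of EC types, in their values and in those of the gene lists was not tested. In bulk RNA, fewer cells of a type and less RNA per cell cannot be told apart.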

How the data were processed

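Liver ECs in 3 young and 3 aged samples were sequenced as 75-base single-end reads. Per the labels and methods, the authors called bases with CASAVA 1.8.2, mapped reads to mm9 with TopHat2 2.1.0 and deposited read counts per gene symbol, without normalization. The counting program, its annotation and its use of strand are not given in the sources used here. FPKM values, which the authors made with Cuffnorm 2.2.1 and which are scaled between samples, were used for levels. Of the counted rows, 27 have symbols turned into dates, none of them one of the 10 genes.

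Genes reaching a CPM of 0.5 in any sample (14612 of 24421) were scaled by TMM and compared with edgeR 4.0.16 (glmQLFit and glmQLFTest, R 4.3.3). DESeq2 1.42.0 and limma 3.58.1 served as alternatives, the latter also on log2(FPKM + 1) and log2(FPKM + 0.1). The standard error is the log2 fold change over the square root of F. Intervals and floors cover counting and sample spread only. An exact two-sided permutation test was run for single values; 3 against 3 cannot give a p below 0.1. The fits were tested on simulated data. Whether each sample is 1 mouse is not given in the sources used here, so p-values measure the spread between these samples, which may be partly technical. No pair of samples of the same age was alike within sampling noise (chi-square per degree of freedom at least 17.3).

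The 10 genes and all lists were chosen with earlier results of these data known. Named are the 10 genes, the 3 genes of smallest p in each list with any called by edgeR or DESeq2, and genes of like pattern. Positions come from GENCODE's annotation of mm9 and sequences from that genome. Alternatives without the 136-week sample for list counts were chosen after seeing the data. One gene of the secretory list, counted in its totals, is not reported here by name.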

Additional observations from a re-analysis of the deposited data

How the results depend on the processing

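Gdf15, Cdkn1a, Trp53 and Mdm2 kept a positive log2 fold change under every alternative run. Their ranges were 2.91 to 4.55, 0.24 to 0.71, 0.12 to 0.42 and 0.22 to 0.61. Cdkn2a kept a negative one, from -1.69 to -0.24, in every run that could fit it, but it passed the filter only through young replicate 2. Adjusted p ran from 1.43e-08 to 0.567 for Gdf15 and from 0.238 to 0.766 for Cdkn1a. The number of the 10 genes called was 0 in edgeR and 1 in DESeq2, and 0 to 1 when each sample was left out. At an unadjusted p below 0.05 it was 1, and 2 with no filter on low counts, with DESeq2, with limma-voom with sample quality weights and with a term for the library cluster, and 1 to 2 when each sample was left out. Of all genes, 0 were called, but 6 with no filter, 637 with DESeq2, 15 with quality weights, 1 with log2(FPKM + 0.1), 2 with log2(FPKM + 1) over genes of at least 0.1 FPKM in all samples, 2 with the cluster term and 0 to 123 when each sample was left out (123 without the 131-week sample). The 1986 genes at an unadjusted p below 0.05 became 1205 to 2606 with each sample left out, 1205 without young replicate 2 and 1217 without the 136-week sample.

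The sign turned for 5 genes whose intervals span 0. Lmnb1 was -0.003 in limma-voom, -0.18 with quality weights, -0.011 on log2(FPKM + 1), with and without its filter, and -0.038 on log2(FPKM + 0.1). With quality weights Cdkn1b was -0.31 and Cdkn2c -0.012. With each sample left out, Cdkn1b ran from -0.15 to 0.45, Cdkn2b from -0.025 to 0.60, Cdkn2c from -0.033 to 0.22, Lmnb1 from -0.52 to 0.44 and Ccnd1 from -0.39 to 0.16. The cause was not tested. Cdkn2a could not be fitted without young replicate 2, when it fell below the filter. No paired analysis was possible because the labels number only the young samples.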

Other observations

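The genes whose pattern over the 6 samples was most like that of Gdf15 and of Cdkn1a were sought among 10224 tested genes with a mean CPM of at least 5, by Pearson's r on log2(CPM + 1). The values describe these 6 libraries, which all genes share, and with so many genes some lie close to any pattern. For Gdf15 they were Cd200 (r = 0.9957), a surface glycoprotein, Rnd1 (r = 0.9956) and Azin1 (r = 0.9956), which regulates polyamine synthesis. The study divides liver ECs by CD200, which its large-vessel ECs carry and its sinusoidal ECs lack. Cd200 had a CPM of 144, 132 and 129 in young samples and of 255, 214 and 356 at 127, 131 and 136 weeks, and Rnd1 of 78.2, 63.3 and 79.1 and of 351, 277 and 993. In both, as in Gdf15, the ages did not overlap and the 131-week sample was the lowest of the aged samples. For Cdkn1a they were Igf2r (r = 0.9916), the receptor that clears insulin-like growth factor 2, Zfp46 (r = 0.9894) and Lap3 (r = 0.9877), a leucine aminopeptidase. Igf2r had a CPM of 27.6, 33.7 and 30.4 in young samples and of 35.4, 33.5 and 52.1 at 127, 131 and 136 weeks, so that its ages overlapped.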
